A study of Mus musculus with 24 samples.

Results

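Conventional dendritic cells of the cDC1 subset that carry an active Zeb2 transgene were set against cDC1 in which the same transgene was silent. The comparison takes 6 of the 24 RNA sequencing libraries of the series, chosen by their titles. In the 4 Cre-positive libraries the genotype was CD11cCRExR26-Zeb2Tg/Tg, that is, Cre recombinase driven by CD11c regulatory sequences with the Zeb2 transgene in both Rosa26 alleles. In the 2 Cre-negative control libraries the genotype was R26-Zeb2Tg/Tg, so the controls carry the transgene too but lack the recombinase that turns it on. Other libraries of the series serve as points of comparison. They are cDC2 of the same line (4 Cre-positive and 2 Cre-negative) and cDC1 and cDC2 of a deletion line, each with 4 libraries of genotype CD11cCRExZeb2fl/fl, in which the same Cre deletes the floxed Zeb2 alleles, and 2 Cre-negative controls of genotype Zeb2fl/fl. All came from untreated C57Bl/6 mice at steady state, aged 6 to 12 weeks, and the cells were sorted from digested spleens with antibodies by flow cytometry. CD11c is shared by all conventional dendritic cells, so the driver is not specific to cDC1. The labels do not say whether replicates are separate mice, so the p-values below measure the spread between these libraries. Reads of the transgene and of the endogenous Zeb2 gene cannot be told apart in a count per gene.

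Zeb2 is a zinc-finger transcription factor best known as a repressor of epithelial genes, and it binds paired E-box motifs of the CACCTG type. In mouse spleen, cDC2 express it and cDC1 normally carry little of it. The cDC1 subset depends on the factors Irf8, Batf3 and Id2 and is known for taking up dead cells and presenting their antigens to CD8 T cells. The cDC2 subset is known for signal regulatory proteins, lectins and other sensing receptors and for priming CD4 T cells. Per the title of the series, the study asked how Zeb2 acts on dendritic cell development by repressing Id2.

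Values below are CPM, the counts of a gene as a fixed-scale share of all counted reads of its library, after scaling between libraries by the TMM method of edgeR, which compares a gene between libraries but not 2 genes of different length. Differences are log2 fold changes of Cre-positive over control cDC1 with their standard errors (SE), with p-values from the quasi-likelihood F test of edgeR, adjusted over 13166 genes by the Benjamini-Hochberg method at a threshold of 0.05. The 6 libraries held 21972763 to 36094786 counts in genes and 13396 to 13923 genes with a count. The 4 Cre-positive libraries separated from both controls on the first principal component, which held 36.7% of the variance. Cre-positive libraries 1 and 2 lay closest to each other, with a chi-square of 14.2 per gene, against 41.1 to 51.1 for the other pairs of Cre-positive libraries and 35.4 for the pair of controls.

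Zeb2 itself had 44.3, 45, 46.2 and 41.3 CPM in Cre-positive cDC1, against 3.25 and 2.36 CPM in controls (log2 fold change 3.96, SE 0.39, edgeR adjusted p = 3.88e-07). The groups did not overlap, and the exact permutation test on the libraries gave p = 0.0667, the smallest that 15 assignments allow. In control cDC2 of the same line Zeb2 had 104 CPM in each of 2 libraries, so the Cre-positive cDC1 averaged 42.6% of the cDC2 level, with a coefficient of variation of 4.69% over the 4 libraries. Id2, the inhibitor of E proteins named in the title, had 829, 879, 858 and 800.1 CPM in Cre-positive cDC1, against 1219.6 and 1314 CPM in controls (log2 fold change -0.59). Its edgeR adjusted p was 0.0168, and it reached 0.153 without control 2, one of 2 libraries whose removal ended the call, the other being control 1.

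In all, 472 genes were higher in Cre-positive than in control cDC1 (3.58% of those tested) and 450 were lower (3.42%). Counts of called genes in the lists below are to be read against these shares. The lists and their members were chosen with earlier results of these data known, so their counts and medians are a description. At least 2-fold differences were found for 228 of the higher genes (1.73% of those tested) and 179 of the lower ones (1.36%). The median log2 fold change over all genes tested was 0.02. Genes called higher numbered 297 without control 1 and 264 without control 2, and genes called lower numbered 287 and 212 without these controls. The 4 Cre-positive libraries lay above both controls for 13.4% of all genes and below both for 11.8%, called or not. Genes named below for the highest or lowest fold changes were drawn only from called genes without such overlap. For them that separation was a condition of choice and not a result. A floor on their mean level was set over all 24 libraries, cDC2 included, so the choice favoured genes high in cDC2. Genes low in cDC1 could thus pass, such as Clec4a4 and Tlr7, with 156 and 112 CPM in control cDC2 of the same line. Genes so named that rose include Clec4a4, Clec7a, Clec4a1, Ddx58, Tgm2, Tlr7, Cybb and Ptger3. Those that fell include Ttc39a, Actn1, Notch4, Lsr, Gcsam, Serpinb6b, Serpinb9, Cxcr3 and Gclc.

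**Figure D1:**
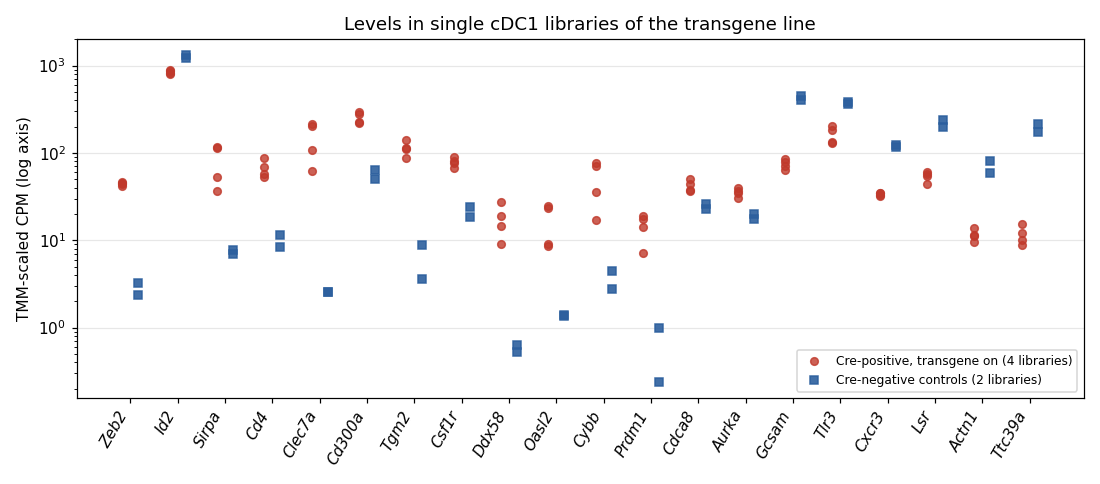
TMM-scaled CPM (log axis) of selected genes in single cDC1 libraries of the transgene line, with Cre-positive libraries as circles on the left of each gene and Cre-negative controls as squares on the right. The Zeb2 circles lie between 41.3 and 46.2 CPM and its squares at 2.36 and 3.25 CPM.

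Most of the genes that changed differ between the subsets in mice without Cre. The subset direction of each gene was read from an independent set of libraries, the Cre-negative controls of the deletion line, with 2 cDC2 against 2 cDC1 libraries, in which 2648 genes (20.1%) passed the threshold as cDC2-high and 2553 (19.4%) as cDC1-high. Of the 472 genes that rose, 349 (73.9%) were cDC2-high, 17 were cDC1-high and 106 were neither. Of the 450 genes that fell, 264 (58.7%) were cDC1-high, 53 were cDC2-high and 133 were neither. Among the 912 genes at least 4-fold higher in cDC2, 178 rose and 14 fell, with a median log2 fold change of 0.61. Among the 481 genes at least 4-fold higher in cDC1, 4 rose and 104 fell, with a median of -0.56. In these bulk libraries, more cells of another type in the sort and more RNA of a gene in each cell cannot be told apart.

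**Figure D2:**
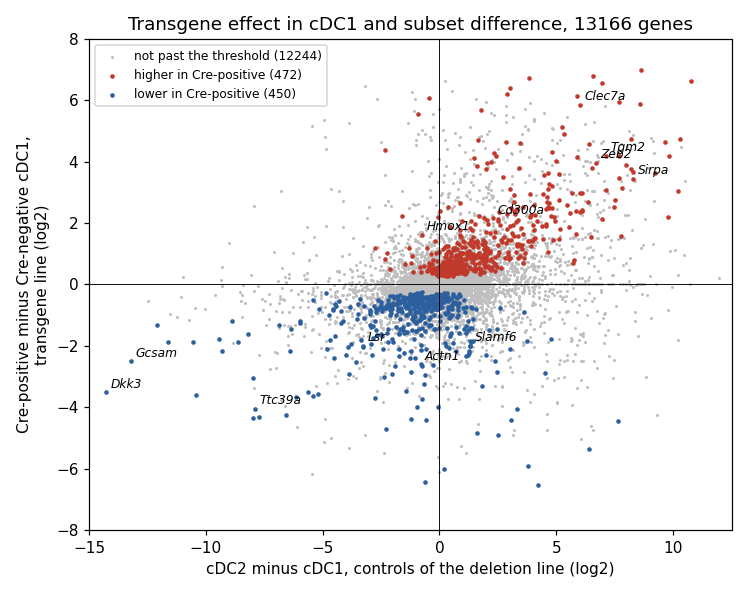
Each point is one of the tested genes, with the difference between control cDC2 and control cDC1 of the deletion line on the x axis and the difference between Cre-positive and Cre-negative cDC1 of the transgene line on the y axis, both in log2. Of the 472 genes that rose (red), 349 are cDC2-high, and of the 450 that fell (blue), 264 are cDC1-high; 1 gene lies outside the axes.

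Surface receptors that mark cDC2 were higher in Cre-positive than in control cDC1. In a list of 20 cDC2 identity genes, 12 rose and the other 8 were not called by edgeR, and the list median was 1.46 against 0.02 over all genes. Clec7a, the beta-glucan receptor dectin-1, had 205, 212, 107 and 61.4 CPM in Cre-positive cDC1, against 2.53 and 2.56 CPM in controls (log2 fold change 5.84, SE 0.54, edgeR adjusted p = 1.85e-07). Every Cre-positive library stood far above both controls, and libraries 1 and 2 were the highest. Separation of the groups was a condition of choice for Clec7a. Sirpa, the signal regulatory receptor by which cDC2 are commonly sorted, had 115, 117, 53.1 and 36.2 CPM in Cre-positive cDC1, against 6.99 and 7.78 CPM in controls (log2 fold change 3.44, SE 0.46, edgeR adjusted p = 2.61e-05). Cd4, which on mouse splenic dendritic cells marks a share of cDC2, had 87.6, 68.3, 57.4 and 52.4 CPM in Cre-positive cDC1, against 8.36 and 11.6 CPM in controls (log2 fold change 2.74, SE 0.24, edgeR adjusted p = 6.56e-08). The groups were apart for both genes. Itgam, the integrin chain CD11b, had 39.3, 34.3, 24.8 and 10.5 CPM in Cre-positive cDC1, against 4.34 and 2.51 CPM in controls (log2 fold change 2.96, SE 0.42, edgeR adjusted p = 5.21e-05). Cd300a, an inhibitory receptor for membrane lipids, had 297, 277, 222 and 225 CPM in Cre-positive cDC1, against 64.5 and 50.5 CPM in controls (log2 fold change 2.15, SE 0.15, edgeR adjusted p = 3.61e-09), and its Cre-positive values varied least of these genes. Clec4a4 had 289 counts over the 4 Cre-positive libraries and 1 count over both controls, a depth-scaled ratio of 117 with an exact counting interval of 20.8 to 4634. It encodes the lectin DCIR2 of the splenic cDC2 antibody 33D1. Leaving out single libraries gave 8 to 12 called members in the cDC2 list.

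The level reached in Cre-positive cDC1 differed widely from gene to gene when set against control cDC2 of the same line. Clec7a averaged 69.3% of its cDC2 level and Cd300a 66.6%, against 1.20% and 15.0% in control cDC1. Cd4 averaged 25.8% and Itgam 18.3%, against 3.88% and 2.30% in control cDC1. Sirpa averaged 6.09% and Cd209a, a lectin of the DC-SIGN family, 5.03%, against 0.56% and 0.931% in control cDC1. Sirpb1a, an activating relative of Sirpa, averaged 2.51%, and Clec4a4 1.77%. Dtx1, a regulator of Notch signalling, averaged 0.724% against 0.279% in control cDC1. Some members of the list were no higher than in control cDC1. The lectin gene Mgl2 averaged 0.608% against 1.12% in control cDC1, and Clec10a, a lectin of the same family, 0.28% against 0.349%. Relb, a subunit of NF-kappaB, averaged 21.0% against 24.2% in control cDC1, and Clec12a, an inhibitory lectin, 263.9% against 264.2%. Epas1, a hypoxia-inducible factor, was under 1 CPM in control cDC2 and averaged 38.8% of that level against 49.7% in control cDC1. Over all 163 genes that rose, were at least 4-fold cDC2-high and had at least 5 CPM in control cDC2, the median share was 23.4%, with an interquartile range of 12.4 to 40.2% and a range of 1.34 to 186%. Under 10% of the cDC2 level lay 36 of these genes, and above it lay 4. The median over these genes was 28.3, 28.3, 20.8 and 16.7% in the 4 Cre-positive libraries, against 6.78 and 4.80% in controls. These genes were chosen because they rose, so the shares are a description. The part that cDC2 carried along in the sort could have in them was not tested.

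**Figure D3:**
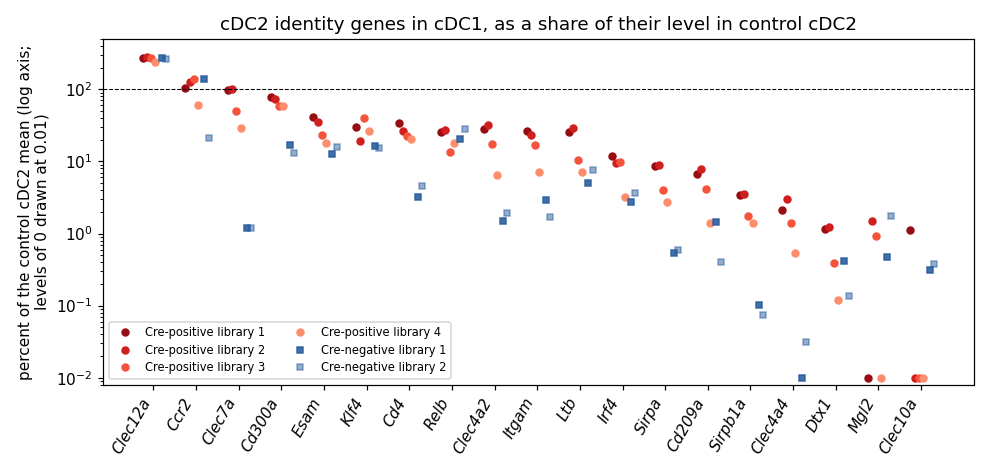
Level of the cDC2 identity genes in single cDC1 libraries as a percentage of the mean of control cDC2 (log axis, dashed line at 100), with Cre-positive libraries in shades of red on the left and controls as squares on the right. Clec7a and Cd300a average 69.3 and 66.6% in Cre-positive cDC1, while Sirpa averages 6.09% and Dtx1 0.724%.

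Part of the cDC1 programme fell, and part of it was not called. In the list of 20 cDC1 identity genes, 11 fell and the other 9 were not called by edgeR, with a median of -0.60. Gcsam, a signalling adaptor first described in germinal centre B cells, had 70.6, 79.3, 85.3 and 63.9 CPM in Cre-positive cDC1, against 405 and 445 CPM in controls (log2 fold change -2.51, SE 0.20, edgeR adjusted p = 1.68e-08). Tlr3, the endosomal receptor for double-stranded RNA, had 129, 132, 203 and 184 CPM in Cre-positive cDC1, against 363 and 380.2 CPM in controls (log2 fold change -1.20, SE 0.18, edgeR adjusted p = 0.000108). All 4 Cre-positive libraries were below both controls for these 2 genes, which for Gcsam was a condition of choice. Hepacam2, a cell adhesion molecule, had 37.2, 42.6, 55.5 and 33.1 CPM in Cre-positive cDC1, against 139.8 and 89.6 CPM in controls (log2 fold change -1.45, SE 0.22, edgeR adjusted p = 0.000142). Btla, an inhibitory receptor of the CD28 family, had 281, 269.7, 448 and 412 CPM in Cre-positive cDC1, against 626 and 636 CPM in controls (log2 fold change -0.84, SE 0.18, edgeR adjusted p = 0.00385). Itgae, the CD103 integrin chain, had 31.5, 33, 46.4 and 98.9 CPM in Cre-positive cDC1, against 92.3 and 269.9 CPM in controls. Cre-positive library 4 lay above control 1, so the groups overlapped, and control 2 was the highest of all 6 libraries. Its log2 fold change was -1.78 with an edgeR adjusted p of 0.00409, which became 0.41 without control 2. The chemokine receptor Xcr1, the surface marker of cDC1, had 778, 835, 805 and 889 CPM in Cre-positive cDC1, against 1022 and 1259 CPM in controls (log2 fold change -0.46, edgeR adjusted p = 0.0617). Clec9a, the receptor for exposed actin of dead cells, had 186, 173, 208 and 246 CPM in Cre-positive cDC1, against 242 and 276 CPM in controls (log2 fold change -0.35, edgeR adjusted p = 0.38). Neither passed the threshold, and Cadm1 (log2 fold change -0.01, edgeR adjusted p = 1) and Batf3 (log2 fold change -0.11, edgeR adjusted p = 0.725) did not either. The summed level of the list was 14015 to 18284 CPM in Cre-positive cDC1, against 21083 to 24141 CPM in controls. The count of members that fell was 4 without control 2 and 4 without both Cre-positive libraries 1 and 2.

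Of 39 lineage transcription factors, 2 rose (5.13%, against 3.58% of all genes) and 5 fell (12.8%, against 3.42%). Prdm1, the repressor Blimp-1 that acts in plasma cells, T cells and dendritic cells, had 17.4, 18.8, 14.1 and 7.13 CPM in Cre-positive cDC1, against 0.241 and 0.985 CPM in controls (log2 fold change 4.60, SE 0.60, edgeR adjusted p = 2.08e-05). It is cDC2-high (log2 3.43 between control subsets), and no Cre-positive library came near a control. Irf4, the interferon regulatory factor of cDC2, had 17.4, 13.9, 14.8 and 4.81 CPM in Cre-positive cDC1, against 4.02 and 5.41 CPM in controls (log2 fold change 1.43, edgeR adjusted p = 0.0484), with library 4 between both controls. The count of factors that rose was 1 without either control and 1 without Cre-positive library 1, 2 or 3. Mycl, the Myc family member of cDC1, had 556, 569.5, 562 and 658 CPM in Cre-positive cDC1, against 958 and 1133 CPM in controls (log2 fold change -0.83, SE 0.12, edgeR adjusted p = 9.63e-05), library 4 standing above the other Cre-positive libraries. Irf8, on which cDC1 identity depends, had 2064, 2157, 2450.2 and 2828 CPM in Cre-positive cDC1, against 3682 and 4574 CPM in controls (log2 fold change -0.80, SE 0.18, edgeR adjusted p = 0.00537). The groups did not overlap for Irf8, but its edgeR adjusted p was 0.143 without control 2. Zbtb46, a factor of conventional dendritic cells, had a log2 fold change of -0.58 (edgeR adjusted p = 0.000508, and 0.0656 without control 2). Rbpj, the DNA-binding partner of Notch, had one of -0.51 (edgeR adjusted p = 0.00206, and 0.0533 without control 2). The E proteins Tcf3 (log2 fold change 0.09, edgeR adjusted p = 0.737), Tcf4 (log2 fold change 0.28, edgeR adjusted p = 0.467) and Tcf12 (log2 fold change 0.01, edgeR adjusted p = 0.997), whose activity Id2 is known to block, were not called.

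Interferon-stimulated genes, which encode antiviral effectors and nucleic acid sensors, formed one of the larger groups that rose. Of 43 tested, 18 rose and the other 25 were not called by edgeR, and the median was 0.88. Ddx58, the RNA helicase RIG-I, had 27.3, 18.9, 14.5 and 9.07 CPM in Cre-positive cDC1, against 0.522 and 0.64 CPM in controls (log2 fold change 4.90, SE 0.47, edgeR adjusted p = 2.70e-07). Ifit3, a protein with tetratricopeptide repeats that acts on viral RNA, had 12, 12.4, 4.65 and 6 CPM in Cre-positive cDC1, against 0.321 and 0.788 CPM in controls (log2 fold change 4.01, SE 0.58, edgeR adjusted p = 8.05e-05). Both genes were nearly silent in controls and clearly above them in every Cre-positive library. Oasl2, a relative of the oligoadenylate synthetases, had 24.7, 23.2, 8.57 and 9.01 CPM in Cre-positive cDC1, against 1.37 and 1.38 CPM in controls (log2 fold change 3.57, SE 0.43, edgeR adjusted p = 7.38e-06). Rtp4, a membrane-associated protein induced by interferon, had 17.8, 16.8, 6.9 and 5.04 CPM in Cre-positive cDC1, against 0.964 and 0.246 CPM in controls (log2 fold change 4.18, SE 0.56, edgeR adjusted p = 2.85e-05). Oas1a, an oligoadenylate synthetase that activates RNase L, had 19.8, 17.9, 9.07 and 14.9 CPM in Cre-positive cDC1, against 3.7 and 1.58 CPM in controls (log2 fold change 2.52, SE 0.35, edgeR adjusted p = 3.68e-05). All 4 Cre-positive libraries exceeded both controls for each of these genes, which for Ddx58 was a condition of choice. Of the 18 members that rose, 17 were cDC2-high in the deletion line controls and 1 was neither. Irf7, a factor that amplifies the interferon response, had 176, 185, 120.1 and 161 CPM in Cre-positive cDC1, against 134 and 148 CPM in controls (log2 fold change 0.19, edgeR adjusted p = 0.514), and it was called neither here nor between the control subsets. In a list of 19 interferon regulatory factors, STAT factors and their kinases, 1 fell and the other 18 were not called by edgeR. That gene was Jak2, a kinase of cytokine receptors (log2 fold change -0.63, edgeR adjusted p = 0.000747, and 0.0565 without control 2). The count of interferon-stimulated genes that rose was 9 without control 2, 11 without Cre-positive libraries 1 and 2 and 12 in the fit of the 6 libraries alone.

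The promoters of Ifit3 and Ddx58 are shown because both genes rose strongly and both hold the core of the interferon-stimulated response element. The sequences run from 250 bases before to 50 bases after the start of the gene, in the direction of transcription, from RefSeq on GRCm38.p6. Capitals mark matches to TTTC, any 2 bases and TTTC again, or on the other strand to GAAA, any 2 bases and GAAA. Ifit3 lies at chr19:34583279-34583578 on the plus strand and Ddx58 at chr4:40239776-40240075 on the minus strand.
Ifit3: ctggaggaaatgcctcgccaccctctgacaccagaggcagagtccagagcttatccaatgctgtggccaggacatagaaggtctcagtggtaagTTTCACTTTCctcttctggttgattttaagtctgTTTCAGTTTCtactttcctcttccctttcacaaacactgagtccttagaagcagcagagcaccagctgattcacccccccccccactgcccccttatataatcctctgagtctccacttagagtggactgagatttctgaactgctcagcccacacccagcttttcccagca
Ddx58: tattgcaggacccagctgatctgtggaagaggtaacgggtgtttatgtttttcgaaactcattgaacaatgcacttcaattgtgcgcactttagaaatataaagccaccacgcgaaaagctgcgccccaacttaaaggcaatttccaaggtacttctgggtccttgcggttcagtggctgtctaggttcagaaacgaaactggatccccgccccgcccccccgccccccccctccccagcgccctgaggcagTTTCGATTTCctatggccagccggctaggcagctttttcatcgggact
The promoter table held 1 or more promoters for 10057 of the 13166 genes, and the first listed was searched. This core was found in 3.331% of all promoters, in 10.19% of those of genes that rose and in 1.475% of those of genes that fell. Among interferon-stimulated genes with a promoter it was found in 57.58% of the 33 tested and in 8 of the 12 that rose.

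Among 19 cytosolic sensors of nucleic acids and inflammasomes, 6 rose and the other 13 were not called. Casp1, the inflammasome protease, had 40.2, 43.4, 37.5 and 31.2 CPM in Cre-positive cDC1, against 15.4 and 16.4 CPM in controls (log2 fold change 1.26, SE 0.15, edgeR adjusted p = 4.51e-06). Ifih1, the RNA sensor MDA5, had 31.7, 27.8, 25 and 23.8 CPM in Cre-positive cDC1, against 14.8 and 14.6 CPM in controls (log2 fold change 0.88, SE 0.17, edgeR adjusted p = 0.00141). Among 18 Toll-like receptors and partners 4 rose and 1 fell. Tlr1, a partner of Tlr2 in lipoprotein sensing, had 42.9, 54.4, 26 and 19.6 CPM in Cre-positive cDC1, against 3.74 and 4.48 CPM in controls (log2 fold change 3.12, SE 0.31, edgeR adjusted p = 5.16e-07). Tlr7, which senses single-stranded RNA, had 5.21, 4.28, 1.09 and 0.522 CPM in Cre-positive cDC1, against 0.201 and 0.148 CPM in controls, with libraries 1 and 2 far above 3 and 4, and its edgeR adjusted p of 0.00547 became 0.0719 without control 2 and was also above the threshold without control 1 and in the fit of the 6 libraries alone. The count of Toll-like receptors and partners that rose was 2 without either control and 1 in the fit of the 6 libraries alone. The member that fell, Tlr12, had an edgeR adjusted p of 0.54 without control 2 and lost the call without Cre-positive library 1, 2 or 3 too. Of the endosomal RNA sensors, Tlr3 was thus lower and Tlr7 higher in Cre-positive cDC1.

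Receptor genes of several clusters on single chromosomes rose together. Of 20 C-type lectin receptors 6 rose and 1 fell, and of 24 Fc and paired receptors 11 rose and the other 13 were not called. Fcer1g, the signalling chain shared by Fc receptors and several lectins, had 134, 143, 89.4 and 76.6 CPM in Cre-positive cDC1, against 22.9 and 13.9 CPM in controls (log2 fold change 2.58, SE 0.22, edgeR adjusted p = 4.23e-08). Clec1b, the receptor CLEC-2, had 18.3, 12.7, 12.7 and 8.63 CPM in Cre-positive cDC1, against 0.683 and 0.837 CPM in controls (log2 fold change 4.10, SE 0.38, edgeR adjusted p = 1.65e-07). Clec4a1, a lectin of the DCIR family, had 17, 20.4, 8.41 and 4.49 CPM in Cre-positive cDC1, against 0.723 and 0.148 CPM in controls (log2 fold change 4.74, SE 0.55, edgeR adjusted p = 4.37e-06). Both lectins were under 1 CPM in controls and above 4 CPM in every Cre-positive library. Clec4n, dectin-2, had 11.9, 15, 6.09 and 6.11 CPM in Cre-positive cDC1, against 1.61 and 2.17 CPM in controls (log2 fold change 2.38, SE 0.41, edgeR adjusted p = 0.000607). Lair1, an inhibitory receptor for collagen, had 37.8, 34.8, 31.8 and 20.7 CPM in Cre-positive cDC1, against 8.04 and 4.97 CPM in controls (log2 fold change 2.25, SE 0.22, edgeR adjusted p = 3.88e-07). The groups were apart for all 5 of these genes, which for Clec4a1 was a condition of choice. The one lectin of the list that fell was Clec4b2, with 7.05, 10.8, 6.59 and 2.9 CPM in Cre-positive cDC1, against 33.5 and 27.6 CPM in controls (log2 fold change -2.17, SE 0.38, edgeR adjusted p = 0.000601). On chromosome 6, 6 of 9 tested genes between 122847140 and 123247024 rose (C3ar1, Clec4a1, Clec4a3, Clec4a4, Clec4a2 and Clec4n) and 1 fell, Clec4b2. On chromosome 11, 5 of 7 tested genes in the stretch of the Cd300 cluster from 114889152 to 115135372 rose and 1 fell, the Rab GTPase gene Rab37. On chromosome 19, 5 of 6 genes of the Ifit cluster from 34550550 to 34662981 rose. C3ar1, the receptor of complement C3a, lost the call without control 2 (edgeR adjusted p = 0.0713). Genes of these clusters have near-identical neighbours, so the authors' counting could split reads between them. Cybb, the catalytic chain of the NADPH oxidase, had 75.7, 71.1, 35.4 and 16.9 CPM in Cre-positive cDC1, against 4.5 and 2.76 CPM in controls (log2 fold change 3.76, SE 0.51, edgeR adjusted p = 3.57e-05). The oxidase genes Ncf1 (log2 fold change -0.09, edgeR adjusted p = 0.758) and Cyba (log2 fold change 0.03, edgeR adjusted p = 0.935) were not called. The transglutaminase Tgm2, a cross-linking enzyme, had 139, 114, 110.1 and 86.4 CPM in Cre-positive cDC1, against 3.62 and 8.91 CPM in controls (log2 fold change 4.18, SE 0.31, edgeR adjusted p = 6.40e-09), with no Cre-positive library near a control. For Tgm2 too, separation of the groups was a condition of choice.

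Called genes of antigen presentation were lower on the class I side and went both ways on the class II side. Of 25 genes of class I presentation and cross-presentation, 5 fell and the other 20 were not called, with 2 lower without control 2 and 8 without Cre-positive library 4. Tap1, a chain of the peptide transporter into the endoplasmic reticulum, had 580, 568, 492 and 599.8 CPM in Cre-positive cDC1, against 922 and 985 CPM in controls (log2 fold change -0.77, SE 0.11, edgeR adjusted p = 4.17e-05). Psmb9, an immunoproteasome subunit, had 489.9, 494, 435 and 545 CPM in Cre-positive cDC1, against 733 and 815 CPM in controls (log2 fold change -0.66, SE 0.10, edgeR adjusted p = 0.000119). The groups did not overlap for either gene. Of 16 class II genes 2 rose and 3 fell, with 4 higher without Cre-positive library 3 and 1 lower without control 2. H2-Ob, a chain of H2-O, the inhibitor of peptide loading by H2-DM, had 187, 203, 189 and 193 CPM in Cre-positive cDC1, against 327 and 326 CPM in controls (log2 fold change -0.76, SE 0.08, edgeR adjusted p = 1.99e-06). The class II chain H2-Ab1 had 18838, 19771, 16429 and 22378 CPM in Cre-positive cDC1, against 21913 and 24457 CPM in controls (log2 fold change -0.26, edgeR adjusted p = 0.102) and was not called. On chromosome 17, between 34092379 and 34245908, 6 of 10 tested genes of the major histocompatibility complex fell: H2-Oa, H2-DMa, Psmb9, Tap1, Tap2 and H2-Ob. H2-Oa, H2-DMa and Tap2 each lost the call without control 2, with edgeR adjusted p of 0.227, 0.192 and 0.295, and H2-DMa also without control 1.

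Proteases of the endosome changed in both directions. Of 21 lysosomal genes, 7 rose and 2 fell, and 4 rose without either control. Ctsc, a dipeptidyl peptidase, had 362, 342, 269 and 244 CPM in Cre-positive cDC1, against 131 and 99.9 CPM in controls (log2 fold change 1.39, SE 0.16, edgeR adjusted p = 2.30e-06). Lgmn, the asparagine endopeptidase, had 98.3, 87.2, 65.2 and 79 CPM in Cre-positive cDC1, against 38.3 and 27.9 CPM in controls (log2 fold change 1.32, SE 0.20, edgeR adjusted p = 0.000133). Ctss, the protease that trims the invariant chain, had 919.9, 865, 722 and 865 CPM in Cre-positive cDC1, against 616 and 637 CPM in controls (log2 fold change 0.43, SE 0.08, edgeR adjusted p = 0.00191). These 3 rose in every Cre-positive library relative to both controls. Cst3, the cysteine protease inhibitor cystatin C, had 9740.0, 11211, 9989 and 11813 CPM in Cre-positive cDC1, against 18152 and 20553 CPM in controls (log2 fold change -0.86, SE 0.09, edgeR adjusted p = 8.05e-07). Gusb, beta-glucuronidase, had 602, 617, 591 and 744 CPM in Cre-positive cDC1, against 1307 and 1204 CPM in controls (log2 fold change -0.98, SE 0.12, edgeR adjusted p = 1.28e-05). In the fit of the 6 libraries alone Ctss lost its call (edgeR adjusted p = 0.0832). The inhibitor Cst3 and the protease Ctsc thus moved in opposite directions. Among protease inhibitors, Serpinb9, which blocks granzyme B, had 123, 126, 104 and 112 CPM in Cre-positive cDC1, against 357 and 424 CPM in controls (log2 fold change -1.75, SE 0.23, edgeR adjusted p = 2.14e-05). Its neighbour on chromosome 13, Serpinb6b, had 23.2, 23.8, 20.5 and 26.5 CPM in Cre-positive cDC1, against 120.1 and 152 CPM in controls (log2 fold change -2.53, SE 0.22, edgeR adjusted p = 7.85e-08). Costimulation and maturation genes counted 5 lower and 20 not called of 25, with 2 lower without control 1 or Cre-positive library 3 and 3 without control 2 or Cre-positive library 4. Cd200, an inhibitory ligand, had 13.6, 13.5, 13.6 and 9.97 CPM in Cre-positive cDC1, against 28 and 24.9 CPM in controls (log2 fold change -1.07, SE 0.19, edgeR adjusted p = 0.000763).

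Receptors for growth factors and chemokines shifted too. Of 29 cytokine receptors 3 rose and 3 fell (10.3% each, against 3.58 and 3.42% of all genes). Csf1r, the receptor of macrophage colony-stimulating factor, had 89.3, 75.8, 66.9 and 79.9 CPM in Cre-positive cDC1, against 18.7 and 24.2 CPM in controls (log2 fold change 1.87, SE 0.18, edgeR adjusted p = 2.42e-07). Flt3, the receptor on which conventional dendritic cells depend, had 349, 327, 351 and 369 CPM in Cre-positive cDC1, against 551 and 561 CPM in controls (log2 fold change -0.67, SE 0.10, edgeR adjusted p = 8.33e-05). Kit, the stem cell factor receptor, had 289, 281, 264 and 169 CPM in Cre-positive cDC1, against 456 and 388 CPM in controls (log2 fold change -0.75, SE 0.14, edgeR adjusted p = 0.000946), library 4 being the lowest by a wide margin. Csf1r was thus higher and both Flt3 and Kit were lower. All 3 receptors of the list that rose were cDC2-high. Of the 3 that fell, 1 was cDC1-high, 1 was cDC2-high and 1 was neither. Il2rg, the common gamma chain, had 165, 161, 109.7 and 96.2 CPM in Cre-positive cDC1, against 72 and 55.2 CPM in controls (log2 fold change 1.06, SE 0.18, edgeR adjusted p = 0.00053). Among 18 chemokine receptors 3 fell and the other 15 were not called, with 1 lower without control 1, control 2 or Cre-positive library 4. Cxcr3, which guides cells toward interferon-induced chemokines, had 32.2, 34.6, 33.3 and 34.4 CPM in Cre-positive cDC1, against 116 and 122 CPM in controls (log2 fold change -1.82, SE 0.17, edgeR adjusted p = 2.19e-07). Of 19 chemokines 3 rose and 2 fell, with 1 lower without control 1, control 2 or Cre-positive library 1 or 4. Ccl3, an inflammatory chemokine, had 51, 50.7, 42.8 and 31.1 CPM in Cre-positive cDC1, against 10.01 and 13.2 CPM in controls (log2 fold change 1.92, SE 0.33, edgeR adjusted p = 0.000601). Ccl6, of the same chromosome 11 cluster, had 129, 148, 102 and 83.8 CPM in Cre-positive cDC1, against 33.8 and 22 CPM in controls (log2 fold change 2.05, SE 0.26, edgeR adjusted p = 1.22e-05). Ccl22, a ligand of Ccr4, had 32.9, 42.3, 17.8 and 29.1 CPM in Cre-positive cDC1, against 90.4 and 97.2 CPM in controls (log2 fold change -1.62, SE 0.32, edgeR adjusted p = 0.00212). Both clustered chemokines were above the controls in every Cre-positive library, while Ccl22 was below them.

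Enzymes and receptors of prostaglandins and leukotrienes were another list in which every called member rose. Of 19 tested, 6 rose and the other 13 were not called, although the list median was 0.06. Hpgds, prostaglandin D synthase, had 8.95, 8.09, 6.67 and 7.16 CPM in Cre-positive cDC1, against 2.01 and 2.26 CPM in controls (log2 fold change 1.85, SE 0.24, edgeR adjusted p = 1.39e-05). Pla2g4a, the phospholipase that releases arachidonic acid, had 25.8, 21.5, 27.5 and 23.2 CPM in Cre-positive cDC1, against 11 and 7.93 CPM in controls (log2 fold change 1.37, SE 0.19, edgeR adjusted p = 3.68e-05). Ltb4r1, the high-affinity receptor of leukotriene B4, had 6.33, 7.63, 4.23 and 1.8 CPM in Cre-positive cDC1, against 1.04 and 0.541 CPM in controls (log2 fold change 2.60, SE 0.42, edgeR adjusted p = 0.000273). Ptger3, a prostaglandin E2 receptor, had 14.3, 14.4, 5.62 and 1.74 CPM in Cre-positive cDC1, against 0.121 and 0 CPM in controls. That is 944 counts over the 4 Cre-positive libraries and 3 over both controls, a depth-scaled ratio of 127 with an exact counting interval of 43.4 to 618. Ptger3 was several times lower in library 4 than in libraries 1 and 2. All 6 genes that rose were cDC2-high.

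Among mitotic genes the changes were small and in one direction. Of 50, 21 rose and the other 29 were not called by edgeR, with 45 higher at an unadjusted p under 0.05 and 29 in DESeq2, and the list median was 0.76. For 43 of the 50 all 4 Cre-positive libraries lay above both controls, against 13.4% of all genes. Aurka, a kinase of the spindle poles, had 35, 30.1, 39.4 and 36.2 CPM in Cre-positive cDC1, against 17.3 and 19.9 CPM in controls (log2 fold change 0.92, SE 0.16, edgeR adjusted p = 0.000625). Cdc25b, a phosphatase that activates Cdk1, had 17.8, 12, 14.8 and 12.7 CPM in Cre-positive cDC1, against 5.54 and 6.2 CPM in controls (log2 fold change 1.29, SE 0.24, edgeR adjusted p = 0.00121). Cdca8, borealin of the chromosomal passenger complex, had 36.3, 37.8, 50.4 and 43.9 CPM in Cre-positive cDC1, against 23 and 26.1 CPM in controls (log2 fold change 0.78, SE 0.15, edgeR adjusted p = 0.00205). For each gene the Cre-positive libraries were all above both controls, and library 3 was the highest of them for 43 of the 50 list members. Of 44 DNA replication genes 5 rose and the other 39 were not called by edgeR, with 23 higher at an unadjusted p under 0.05 and a median of 0.40. None of the 29 regulators of G1 was called by edgeR, with 12 higher at an unadjusted p under 0.05 and 1 in DESeq2. The count for mitosis was 4 without control 1, 10 without control 2, 13 without Cre-positive library 3 and 10 without libraries 3 and 4. The DNA replication count was 0 without control 2, 3 without control 1, 1 without Cre-positive library 3 or 4 and 9 without library 2. Of the 21 mitotic genes that rose, 15 were cDC2-high.

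The promoter of Aurka is shown because it holds the cell cycle genes homology region, a motif bound by the DREAM and B-Myb complexes. Its position is chr2:172370521-172370820 on the minus strand, and capitals mark a match to TTTGAA or its reverse complement TTCAAA.
Aurka: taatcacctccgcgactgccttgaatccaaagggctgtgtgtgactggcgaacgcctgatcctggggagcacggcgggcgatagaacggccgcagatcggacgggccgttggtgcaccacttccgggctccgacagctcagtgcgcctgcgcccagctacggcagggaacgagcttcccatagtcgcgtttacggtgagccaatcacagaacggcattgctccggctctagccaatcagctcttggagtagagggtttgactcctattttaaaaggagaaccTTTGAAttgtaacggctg
This motif was found in 11.9% of all promoters, in 22.04% of those of genes that rose and in 11.8% of those of genes that fell. Among mitotic genes with a promoter it was found in 73.81% of the 42 tested and in 11 of the 17 that rose.

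Among epithelial junction genes and genes of Notch and Wnt signalling, more fell than rose, while integrins and adhesion molecules had more rises. Only 16 of the 30 epithelial junction genes passed the low-count filter, and 3 of them fell while the other 13 were not called, with 1 lower without control 2. Marveld2, the tight junction protein tricellulin, had 3.77, 1.74, 3.1 and 2.81 CPM in Cre-positive cDC1, against 17.2 and 11.7 CPM in controls (log2 fold change -2.34, SE 0.37, edgeR adjusted p = 0.000228). Lsr, an angulin that recruits tricellulin to cell corners and that is not in that list, had 60.9, 57.2, 44.3 and 53.7 CPM in Cre-positive cDC1, against 197 and 238 CPM in controls (log2 fold change -2.01, SE 0.13, edgeR adjusted p = 1.32e-09). Both transcripts were lower in every Cre-positive library than in either control, which for Lsr was a condition of choice. Cdh1, the classical target of ZEB factors, had 0 CPM in both controls and in 3 of the Cre-positive libraries. Of 28 integrins and adhesion molecules 5 rose and 1, Itgae, fell, and 2 rose without either control. Of 28 Notch and Wnt genes 1 rose and 5 fell, with 0 higher without either control and 3 lower without control 1. Notch4, a Notch receptor, had 31.8, 26.1, 37.7 and 32.5 CPM in Cre-positive cDC1, against 82.3 and 182 CPM in controls (log2 fold change -2.05, SE 0.25, edgeR adjusted p = 6.69e-06). Dkk3, a secreted protein of the Dickkopf family, had 4.46, 4.53, 6.9 and 11.3 CPM in Cre-positive cDC1, against 79.3 and 77.3 CPM in controls (log2 fold change -3.51, SE 0.30, edgeR adjusted p = 3.85e-07). The controls differed from each other for Notch4 and were close for Dkk3. Ltbp2, a matrix protein related to the binding proteins of TGF-beta, had 2.48, 2.16, 2.87 and 3.19 CPM in Cre-positive cDC1, against 31.9 and 38.2 CPM in controls (log2 fold change -3.70, SE 0.24, edgeR adjusted p = 1.32e-09). Actn1, an actin cross-linker, had 13.9, 11.4, 9.65 and 11.3 CPM in Cre-positive cDC1, against 59.1 and 81.6 CPM in controls (log2 fold change -2.60, SE 0.18, edgeR adjusted p = 3.61e-09). Ttc39a, a protein with tetratricopeptide repeats, had 8.74, 10.04, 12.2 and 15.3 CPM in Cre-positive cDC1, against 175 and 212 CPM in controls (log2 fold change -4.06, SE 0.25, edgeR adjusted p = 1.32e-09). These 5 genes were lower in every Cre-positive library than in either control. For Notch4, Actn1 and Ttc39a, named among the lowest fold changes, the rule of choice had required this. Smad7, the inhibitor of TGF-beta signalling, had 92.5, 79.4, 122 and 85.2 CPM in Cre-positive cDC1, against 34.8 and 49.3 CPM in controls (log2 fold change 1.17, SE 0.19, edgeR adjusted p = 0.000273). Guidance receptors went both ways, with 3 rises and 4 falls of 20, and 2 falls without control 2. Nrp1, a semaphorin and growth factor coreceptor, had 44.2, 42.8, 42.8 and 46.3 CPM in Cre-positive cDC1, against 25.8 and 24.7 CPM in controls (log2 fold change 0.80, SE 0.14, edgeR adjusted p = 0.000424). Plxnd1, a plexin, had 28.2, 25.9, 26.5 and 31 CPM in Cre-positive cDC1, against 8.52 and 11.9 CPM in controls (log2 fold change 1.46, SE 0.18, edgeR adjusted p = 1.28e-05), and Sema4c, a plexin ligand, had 1.19, 2.97, 3.99 and 0.869 CPM in Cre-positive cDC1, against 10.9 and 10.9 CPM in controls (log2 fold change -2.29, SE 0.52, edgeR adjusted p = 0.00635).

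The promoters of Lsr and Marveld2 are shown because both genes fell and both hold the E2 box, the motif that ZEB factors are known to bind. Lsr lies at chr7:30973420-30973719 and the first of 2 listed promoters of Marveld2 at chr13:100616895-100617194, both on the minus strand. Capitals mark CACCTG or its reverse complement CAGGTG.
Lsr: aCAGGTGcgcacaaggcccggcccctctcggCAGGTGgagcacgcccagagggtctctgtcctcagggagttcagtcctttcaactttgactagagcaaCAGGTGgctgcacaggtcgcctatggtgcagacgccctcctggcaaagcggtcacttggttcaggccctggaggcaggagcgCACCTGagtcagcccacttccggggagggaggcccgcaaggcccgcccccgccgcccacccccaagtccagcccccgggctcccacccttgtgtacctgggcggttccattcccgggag
Marveld2: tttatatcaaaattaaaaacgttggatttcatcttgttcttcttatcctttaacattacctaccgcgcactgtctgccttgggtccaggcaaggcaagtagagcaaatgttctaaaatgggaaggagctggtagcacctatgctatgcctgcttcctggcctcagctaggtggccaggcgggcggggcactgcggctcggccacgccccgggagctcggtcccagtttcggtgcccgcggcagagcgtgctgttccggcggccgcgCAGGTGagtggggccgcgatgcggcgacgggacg
The window of Lsr held 4 matches and that of Marveld2 held 1. An E2 box was found in 17.65% of all promoters, in 25.37% of those of genes that fell and in 14.88% of those of genes that rose. The window of Id2 held 0 matches, which says only that these letters are not in it. A core motif of the myeloid factor PU.1, GAGGAA or TTCCTC, was found in 27.02% of all promoters, 34.71% of those of genes that rose and 29.5% of those of genes that fell. Matches to one motif can overlap those to another, and they are a description of sequence, not of binding.

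**Figure D4:**
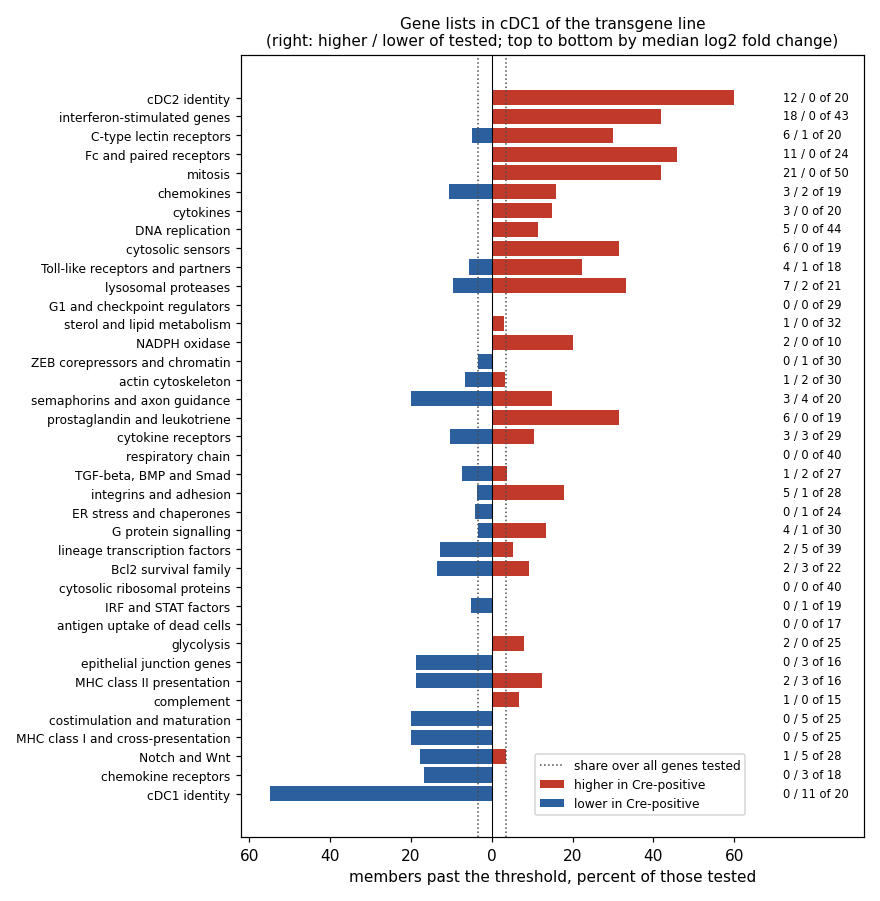
Share of the tested members of gene lists that passed the threshold in cDC1, to the right for higher and to the left for lower in Cre-positive libraries, with counts at the right margin and dotted lines at the shares over all genes, 3.58 and 3.42%. Not drawn are the proteasome and early response lists, which held no called gene, and the cell type lists other than cDC1 and cDC2 identity. The lists for cDC2 identity and mitosis reach 12 of 20 and 21 of 50 higher, and the list for cDC1 identity 11 of 20 lower.

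Several lists held no called genes or a small number of them. In some, the share was above those over all genes, 3.58% higher and 3.42% lower. Called higher were 15% of cytokines, 13.3% of G protein signalling genes, 9.09% of the Bcl2 family, 8% of glycolysis genes and 6.67% of complement genes. Called lower were 13.6% of the Bcl2 family, 7.41% of TGF-beta and BMP genes and 6.67% of actin genes. None of 40 cytosolic ribosomal protein genes was called by edgeR, with 0 at an unadjusted p under 0.05 and 0 in DESeq2, and their fold changes lay between -0.17 and 0.40. None of 40 respiratory chain genes was called by edgeR, with 1 at an unadjusted p under 0.05 and 0 in DESeq2. None of 30 proteasome genes and none of 28 early response and heat shock genes was called by edgeR, and in each list 2 were higher at an unadjusted p under 0.05 and 0 in DESeq2. Of 17 genes for the uptake of dead cells none was called by edgeR, with 1 higher and 2 lower at an unadjusted p under 0.05 and 1 higher in DESeq2. Of 32 sterol and lipid genes 1 rose, and of 25 glycolysis genes 2 rose. Of 30 corepressor and chromatin genes that act with ZEB factors, 1 fell. Of 20 cytokines 3 rose, and 1 without either control. Of 30 genes of G protein signalling 4 rose and 1 fell, with 1 higher without control 2. Of 30 actin genes 1 rose and 2 fell, of 27 genes of TGF-beta and BMP signalling 1 rose and 2 fell, of 15 complement genes 1 rose, and of 24 genes of ER stress 1 fell. Without control 2 these counts were 0 higher and 1 lower for actin, 1 higher and 1 lower for TGF-beta and BMP, 0 for complement and 0 for ER stress, and 1 gene of glycolysis and 0 corepressor genes were called. Without control 1 the sterol and lipid count was 0. Of 22 members of the Bcl2 family and its partners, 2 rose and 3 fell, and each lost its call without at least 1 library.

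Markers of other spleen cells were looked at because a sort can carry them along. Summed B cell markers were 24.7 to 44.5 CPM in Cre-positive cDC1, against 40.7 to 67.6 CPM in controls. Summed T cell markers were 4.29 to 8.13 CPM in Cre-positive cDC1, against 5.76 to 26.4 CPM in controls. Of 9 markers of NK cells 2 fell, and 0 without control 1, with a sum of 1.55 to 3.09 CPM in Cre-positive cDC1, against 2.41 to 11.1 CPM in controls. Summed neutrophil markers were 3.90 to 11.9 CPM in Cre-positive cDC1, against 5.37 to 15.3 CPM in controls. Of 11 stromal and endothelial markers 2 rose, and 0 without either control, and their sum was 77.7 to 91.1 CPM in Cre-positive cDC1, against 55.3 to 68.5 CPM in controls, so that the groups did not overlap. Summed red pulp macrophage markers were 338 to 568 CPM in Cre-positive cDC1, against 219 to 239 CPM in controls, and 3 of 15 rose. Adgre1, the macrophage antigen F4/80, had 66.5, 80.8, 34.8 and 30.5 CPM in Cre-positive cDC1, against 6.75 and 6.84 CPM in controls (log2 fold change 2.96, SE 0.33, edgeR adjusted p = 1.99e-06), and Hmox1, heme oxygenase, had 187, 149, 88.2 and 166 CPM in Cre-positive cDC1, against 45.1 and 51.3 CPM in controls (log2 fold change 1.61, SE 0.28, edgeR adjusted p = 0.000525). Spic, the factor of red pulp macrophages, had 28, 23.4, 9.26 and 17.3 CPM in Cre-positive cDC1, against 3.42 and 6.65 CPM in controls, with an edgeR adjusted p of 0.0059 that became 0.127 without control 1. Of 18 monocyte markers 5 rose, among them Csf1r and Ms4a6c, a membrane protein of the CD20 family, with 75.5, 72.7, 64.9 and 57.8 CPM in Cre-positive cDC1, against 28.8 and 14.1 CPM in controls (log2 fold change 1.65, SE 0.21, edgeR adjusted p = 1.29e-05). Of the 20 markers of plasmacytoid dendritic cells 1 rose and 3 fell, with 1 lower without control 2. Siglech, their defining lectin, was at 0 to 0.388 CPM in Cre-positive cDC1, against 0.884 and 0.0985 CPM in controls. Fcrla, an Fc receptor-like protein listed with them, had 3.38, 2.75, 3.84 and 2.9 CPM in Cre-positive cDC1, against 37.1 and 39.2 CPM in controls (log2 fold change -3.57, SE 0.30, edgeR adjusted p = 4.23e-08). Of the markers that rose, 2 of the red pulp macrophage list, 4 of the monocyte list and 1 of the stromal and endothelial list were cDC2-high. The remaining 1 in each of these 3 lists was neither. Control cDC2 of the same line had 324 CPM of Adgre1, 581 CPM of Csf1r and 260 CPM of Ms4a6c. The part of other cells in the changes above was not tested.

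A minority of genes moved against the subset direction. Of the 17 cDC1-high genes that rose, 6 with the smallest p were Mt1, Prdx1, Armcx3, Ocstamp, Rsl1d1 and Prdx4. Mt1, a metallothionein, had 25.3, 26.5, 21.3 and 29.5 CPM in Cre-positive cDC1, against 11.5 and 15.5 CPM in controls (log2 fold change 0.93, SE 0.21, edgeR adjusted p = 0.00588), and its edgeR adjusted p was 0.129 without control 1. Prdx1, a peroxiredoxin that removes peroxides, had 1038, 1009.5, 973 and 1002 CPM in Cre-positive cDC1, against 799 and 733 CPM in controls (log2 fold change 0.39, SE 0.09, edgeR adjusted p = 0.00802), and its edgeR adjusted p was 0.143 without control 2 and 0.0606 in the fit of the 6 libraries alone. All 6 lost the call without at least 1 control. Among the cDC2-high genes that fell, the 6 of smallest p included the following 4. Slamf6, a homophilic receptor of lymphocytes, had 1.51, 2.54, 1.2 and 2.46 CPM in Cre-positive cDC1, against 8.52 and 6.89 CPM in controls (log2 fold change -1.99, SE 0.23, edgeR adjusted p = 3.60e-06). Pglyrp1, a peptidoglycan binding protein, had 4.6, 6.69, 3.14 and 2.4 CPM in Cre-positive cDC1, against 10.4 and 12.6 CPM in controls (log2 fold change -1.46, SE 0.24, edgeR adjusted p = 0.000254). Tbc1d4, a Rab GTPase-activating protein, had 257, 257, 237 and 203 CPM in Cre-positive cDC1, against 412 and 386 CPM in controls (log2 fold change -0.74, SE 0.11, edgeR adjusted p = 8.49e-05), and Rtn4rl1, a relative of the Nogo receptor, had 0.395, 0.72, 0.659 and 0.898 CPM in Cre-positive cDC1, against 5.54 and 8.02 CPM in controls (log2 fold change -3.31, SE 0.32, edgeR adjusted p = 3.85e-07). These 4 genes were lower in all 4 Cre-positive libraries and kept the call when any single library was left out, unlike Jak2, which is cDC2-high too.

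The same transgene in cDC2 changed fewer genes, with 15 higher (0.114%) and 28 lower (0.213%). Zeb2 itself was not called in cDC2, where the controls already had 104 CPM of it. The test of the difference between both subsets gave 156 genes whose effect was higher in cDC1 (1.18%) and 108 whose effect was lower (0.82%). Tgm2 had a log2 fold change of 4.18 in cDC1 and 0.03 in cDC2, a difference of 4.16 (edgeR adjusted p = 7.97e-07). Ddx58 had 4.90 in cDC1 and -0.10 in cDC2, a difference of 5.01 (edgeR adjusted p = 9.05e-06). Ltbp2 had -3.70 in cDC1 and 0.09 in cDC2, a difference of -3.79 (edgeR adjusted p = 2.54e-06). Ttc39a had -4.06 in cDC1 and -0.59 in cDC2, a difference of -3.47 (edgeR adjusted p = 0.000405). These 4 were taken from the genes of smallest p in that test, so a difference between the subsets was a condition of choice. In size the effect was larger in cDC1 for these 4. Plcb4, chosen by the same rule, went the other way, with 0.50 in cDC1 and 3.86 in cDC2. Called in both subsets were 19 of the 922 genes, all in the same direction, and among them Lsr, H2-Ob, Ccl3, Anxa6 and Itgad. Itgad, which rose in both, was also higher with the deletion, by a log2 fold change of 2.28 in cDC1 and 3.37 in cDC2. Lsr, H2-Ob and Anxa6, which fell in both, rose with the deletion in cDC2 (log2 fold changes 2.01, 0.46 and 0.74). Ccl3 was not called there (-0.34). Anxa6, a membrane-binding annexin, had 441, 440.1, 462 and 386 CPM in Cre-positive cDC1, against 876 and 906 CPM in controls (log2 fold change -1.04, SE 0.07, edgeR adjusted p = 3.61e-09) in cDC1 and a log2 fold change of -0.72 in cDC2.

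Deletion of Zeb2 by the same driver in cDC1 called 3 genes by edgeR (0.0228% of those tested), each of them higher and Zeb2 not among them. Of these, 2, Itgad and Plcb4, were also called with the transgene. Itgad, the integrin chain alpha D, had 8.41, 11.7, 8.3 and 8.03 CPM in Cre-positive cDC1, against 3.82 and 5.07 CPM in controls (log2 fold change 1.04, edgeR adjusted p = 0.00422, and 0.108 without control 1 and 0.0505 in the fit of the 6 libraries alone). Its log2 fold change with the deletion was 2.28. Plcb4, a phospholipase C, had 16, 13.9, 17.6 and 17.6 CPM in Cre-positive cDC1, against 11.2 and 11.8 CPM in controls (log2 fold change 0.50, edgeR adjusted p = 0.029, and 0.165 without control 1), and 0.88 with the deletion. Both were higher in Cre-positive than in control cDC1 in each line, and Plcb4 also lost the call without control 2, Cre-positive library 3 or library 4, with a replicate block (edgeR adjusted p = 0.103) and in the fit of the 6 libraries alone (0.155). The Cre effect in cDC1 was higher with the transgene than with the deletion for 187 genes (1.42%) and lower for 193 (1.47%). In cDC2, where Zeb2 is normally expressed, its deletion called 307 genes as higher (2.33%) and 379 as lower (2.88%). Of these, 61 genes rose here and fell there, which is 12.9% of those that rose here and 16.1% of the genes lower in the deletion. Another 110 genes fell here and rose there, 24.4% of those lower in Cre-positive cDC1 and 35.8% of those higher in the deletion. In the same direction in both were 11 genes that rose and 5 that fell.

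The 4 Cre-positive libraries did not carry the change to the same extent. Of the 349 cDC2-high genes that rose, 142, 109, 75 and 23 were highest in libraries 1 to 4, and 34, 42, 99 and 174 were lowest there. Averaged over its members in log2 CPM, the cDC2 identity list lay 2.29, 2.29, 1.80 and 0.97 above the controls in libraries 1 to 4. The interferon list lay 1.43, 1.46, 0.80 and 0.92 above them. The mitosis list, in contrast, lay 0.65, 0.50, 1.05 and 0.71 above them, with library 3 the highest. The cDC1 identity list lay -0.91, -0.87, -0.66 and -0.55 from the controls. Zeb2 was nearly equal in the 4 libraries (coefficient of variation 4.69%), while Sirpa had a coefficient of variation of 52.0% over the same libraries.

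**Figure D5:**
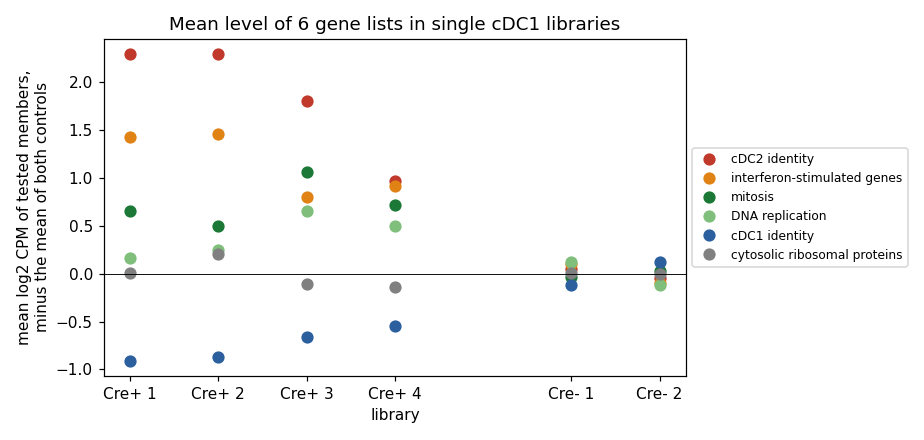
Mean log2 CPM of the tested members of 6 gene lists in each cDC1 library, minus the mean of both controls (y axis), for Cre-positive libraries 1 to 4 on the left and Cre-negative libraries 1 and 2 on the right. The cDC2 identity list is at 2.29, 2.29, 1.80 and 0.97 in libraries 1 to 4, and the mitosis list is highest in library 3 at 1.05.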

How the data were processed

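RNA of sorted splenic cDC1 and cDC2 was sequenced in 24 libraries, and 6 of them form the comparison reported here. Per the labels' protocols, 4 ng of total RNA entered the SMART-Seq v4 protocol and 75 bp single reads were run on a NextSeq500. Per the submitters' processing notes, FastQC 0.11.4, Trimmomatic 0.35, TopHat2 2.1.0 and SAMtools 0.1.18 were used with mm10. The deposited files hold whole-number counts per gene symbol as the authors made them, without scaling. How reads were assigned to genes (program, annotation, strand) is not given in the sources used here. The 5 lines for reads in no gene were left out. In the 6 libraries 10.4 to 12.5% of reads lay outside annotated genes, and 1.01 to 1.07% were ambiguous.

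The software was edgeR 4.0.16, DESeq2 1.42.0 and limma 3.58.1 under R 4.3.3. Genes passed edgeR's filterByExpr (minimum count 10, minimum total 15), and after TMM scaling all 24 libraries entered one quasi-likelihood fit of 8 group means, with factors of 0.925 to 1.00 in the 6. The SE is the size of the log2 fold change divided by the square root of its F value. Counting intervals are exact, at 95%, and cover counting error only, since PCR duplicates were not marked by molecular identifiers. Genes are named by rule. The rules took title genes, interactions, genes against the subset direction and, for each list, at most 5 called members of smallest p. They also took the highest and lowest fold changes among called genes without overlap. For these, mean log2 CPM over all 24 libraries, cDC2 included, had to reach 5. Others, such as uncalled list members and genes of chromosome runs, were chosen after their values were seen. The members and lists were chosen with earlier results of these data known. Runs are called neighbours at most 250000 bases apart. Positions and promoters are from RefSeq on GRCm38.p6, and 12561 of 13166 genes matched. Checked on simulated counts for this comparison (12987 genes), the procedure recovered 71% of 2-fold and 96% of 4-fold changes, and 7.73% of its calls were false. Alternatives were RLE size factors, DESeq2, 2 other low-count filters, fitting only the groups compared, a replicate block, a 2-fold minimum and leaving out libraries. Results on a few genes are not reported here.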

Additional observations from a re-analysis of the deposited data

Results flagged for a closer look

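Single libraries stood apart from the other 3 Cre-positive libraries for 8 of 178 named genes, by the gap to the nearest library as a share of the whole range in log2 CPM, which passed Dixon's critical value for 4 libraries. Chance flags about 5% of such groups, and 8 of 178 was no more than that share. Library 4 was the highest for Mycl (0.858) and the lowest for Pilrb1 (0.835), Cd200 (0.987), Kit (0.832) and Gpr141 (0.842). Library 2 was the highest for Itgad (0.876), library 3 the highest for Prc1 (0.912) and library 1 the lowest for Jchain (0.83). Pilrb1, a paired receptor, had 5.68, 5.72, 5.31 and 3.65 CPM in Cre-positive cDC1, against 0.924 and 0.345 CPM in controls. Gpr141, a receptor without a known ligand, had 241, 239.9, 222 and 142 CPM in Cre-positive cDC1, against 84.7 and 59.4 CPM in controls. Prc1, a spindle midzone protein, had 21.9, 22.1, 31.4 and 21.4 CPM in Cre-positive cDC1, against 7.55 and 13.5 CPM in controls. Jchain, the joining chain of polymeric antibodies, had 1.91, 9.28, 10.4 and 7.79 CPM in Cre-positive cDC1, against 57.5 and 19 CPM in controls, and control 1 was the highest library.

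By the edgeR test of the difference over all genes, the effect of the transgene was higher in cDC1 than in cDC2 for 1.18% of genes and lower for 0.82%. For genes of smallest p in that test, given as a description, the log2 fold change in cDC1 minus that in cDC2 was 4.16 for Tgm2, 2.09 for Cd300a, 1.34 for Sat1, 5.01 for Ddx58 and 2.5 for Fcer1g. It was -3.36 for Plcb4, -3.79 for Ltbp2, -2.32 for Actn1, -1.03 for Prr13, -1.87 for Gclc and -3.47 for Ttc39a. Sat1, an enzyme of polyamine breakdown, had 604, 672, 624 and 550.1 CPM in Cre-positive cDC1, against 296 and 249 CPM in controls. Gclc, the catalytic subunit of glutathione synthesis, had 47.8, 55.3, 36.6 and 40.1 CPM in Cre-positive cDC1, against 161 and 169 CPM in controls. Plcb4 rose in both subsets, with a log2 fold change of 0.50 in cDC1 and 3.86 in cDC2. It rose with the deletion of Zeb2 too, with a log2 fold change of 0.88 in cDC1 and 3.54 in cDC2.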

How the results depend on the processing

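No result changed direction under any alternative run. Scaling by RLE size factors gave 447 genes higher and 463 lower, no low-count filter 483 and 410, the stricter filter (at least 5 CPM in 4 libraries) 462 and 467, and DESeq2 621 and 592. A fit of the compared libraries alone gave 251 higher and 299 lower, and 89 and 120 for the transgene effect against the deletion effect. DESeq2 gave 251 and 224 genes for the difference between cDC1 and cDC2 and 308 and 293 for that against the deletion. A 2-fold minimum gave 63 and 29 genes, 44 and 7 for the difference between subsets, 31 and 18 for that against the deletion, and 932 and 559 for the control subsets. Without Cre-positive libraries 3 and 4, 266 genes had a higher effect in cDC1 than in cDC2. Leaving out single libraries gave 264 to 516 genes higher, 212 to 467 lower, 89 to 209 and 42 to 126 for the difference between subsets, 105 to 219 and 64 to 193 against the deletion, 1991 to 2185 and 1999 to 2153 for the control subsets, and 3.77 to 4.23 for the log2 fold change of Zeb2. The causes were not tested, except that fewer libraries entered these fits. Of 178 named genes, 95 stayed past the threshold in every alternative other than the 2-fold minimum, and 80 lost the call without some single library, in each case a control among them.

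The replicate block gave 540 genes higher and 543 lower, of which 386 and 366 were also called without it, 184 and 156 for the difference between subsets, 236 and 224 against the deletion, 2726 and 2589 for the control subsets and 3.97 for Zeb2. Libraries of the same number deviated from their group means with correlations of 0.030 and -0.100 between Cre-positive and Cre-negative cDC1, 0.101 to 0.111 between cDC1 and cDC2 among Cre-positive libraries and 0.035 among controls, so the numbers were not taken to pair the samples. With 2 controls, the spread in that group rests on 1 difference. In simulated counts 71% of 2-fold changes were recovered, against 96% of 4-fold changes, in genes that were not of low level.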
